A study of Mus musculus with 4 samples.

Results

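A small set of bone marrow (BM) macrophages carried transcripts of genes that respond to low oxygen. They were the cells in which at least 2 of the 4 genes Arg1, Ankrd37, Egln3 and Ak4 were detected, each with at least 1 unique molecular identifier (UMI, the tag that marks 1 captured transcript). Of 36794 cells in 4 libraries, 508 cells (1.38%) met this rule and are called members here. The counts of these 4 genes chose the members, so their values below are a description and carry no test. Members were found in every library, but 462 of them (90.9%) came from the 2 efferocytic libraries, 313 from the first experiment and 149 from the second. A name built on Arg1 alone did not hold for most of them, since only 198 members (39.0%) had an Arg1 UMI, and the cells are therefore called by the rule.

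The study asked how engulfing dying tumor cells, a process called efferocytosis, changes BM macrophages. Macrophages were grown with macrophage colony-stimulating factor from the marrow of male C57BL/6J mice aged 4 to 6 weeks. The legend of the study's single-cell figure gives an age of 4 weeks. Efferocytosis was set up by co-culture for 16 to 18 h with RM1 cells, a mouse prostate cancer line. These had been made apoptotic with ultraviolet light and labelled with the dye CFSE. Non-efferocytic libraries held sorted F4/80+ cells without dye and efferocytic libraries held F4/80+CFSE+ cells. The study's text calls the non-efferocytic cells macrophages alone in one place and speaks of non-engulfing cells collected along with the co-culture in others, so whether they had been exposed to RM1 cells is uncertain. Each of 2 experiments (Exp. 1 and Exp. 2) gave 1 library of each group, made with 10x Genomics 3′ chemistry, so that n = 2 libraries per group. The labels do not say how many mice were behind a library, and differences between libraries may be technical as well as biological. The non-efferocytic libraries held 8280 and 13411 cells (Exp. 1 and Exp. 2) with medians of 11146 and 9600 UMIs per cell, and the efferocytic libraries 6695 and 8408 cells with medians of 17171 and 17476 UMIs.

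Cells sense oxygen through prolyl hydroxylases of the EGLN family. With oxygen present these enzymes mark the alpha subunits of hypoxia-inducible factor (HIF) for destruction, and when oxygen or enzyme activity is low HIF accumulates, enters the nucleus and switches on genes for glucose uptake, glycolysis, mitophagy and vessel growth. Egln3 is both a member of this enzyme family and a HIF target. Ankrd37, an ankyrin repeat protein, and Ak4, a mitochondrial adenylate kinase, are HIF targets as well. Arg1 encodes arginase 1, which splits arginine into ornithine and urea and is induced in macrophages by interleukin 4, by HIF and by lactate. A separate program, the integrated stress response, acts through the transcription factor ATF4 and raises genes for amino acid uptake and synthesis.

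HIF binds DNA at short elements whose core is often written as ACGTG. Promoter windows of 300 bases, from 250 bases before to 50 bases after a RefSeq transcript start (build GRCm38.p6), were held for 3 of the 4 rule genes, and no window was held for Arg1. They are shown because they are the promoters of genes that defined the members, with each ACGTG on either strand in capitals. Ankrd37 held 2 matches and Egln3 held 1, while Ak4 held a palindrome that reads as ACGTG on both strands in 1 of its 4 windows. The windows lie at chr8:45999801-46000100 (minus strand), chr12:54203825-54204124 (minus strand) and chr4:101419453-101419752 (plus strand).
Ankrd37: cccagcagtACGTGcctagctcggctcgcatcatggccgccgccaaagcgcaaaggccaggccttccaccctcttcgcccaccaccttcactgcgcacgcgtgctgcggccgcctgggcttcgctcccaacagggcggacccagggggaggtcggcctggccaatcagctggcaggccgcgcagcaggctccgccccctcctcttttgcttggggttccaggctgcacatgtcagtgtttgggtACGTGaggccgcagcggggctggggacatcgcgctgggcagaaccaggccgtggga
Egln3: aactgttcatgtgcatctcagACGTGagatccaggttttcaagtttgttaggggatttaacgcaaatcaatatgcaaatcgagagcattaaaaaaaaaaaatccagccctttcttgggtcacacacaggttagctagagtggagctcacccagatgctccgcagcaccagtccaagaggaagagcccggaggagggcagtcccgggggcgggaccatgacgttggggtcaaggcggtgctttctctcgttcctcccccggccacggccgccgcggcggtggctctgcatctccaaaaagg
Ak4: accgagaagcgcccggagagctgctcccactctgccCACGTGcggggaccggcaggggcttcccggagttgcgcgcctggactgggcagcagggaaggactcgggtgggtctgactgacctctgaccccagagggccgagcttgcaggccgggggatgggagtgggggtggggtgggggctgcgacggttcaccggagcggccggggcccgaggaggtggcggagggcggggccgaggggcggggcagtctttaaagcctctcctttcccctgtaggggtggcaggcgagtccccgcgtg

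ATF4 binds with C/EBP proteins at elements that contain TGATGNAA, and 3 promoters with such a match are shown next because their genes, Trib3, Asns and Chac1, were among the ATF4 targets that differed most between members and remaining cells. They were picked with that result known. Trib3 is a pseudokinase that restrains ATF4, Asns makes asparagine and Chac1 degrades glutathione. Each window held 1 match, in capitals. All windows are written along the strand of their gene, so a match on the other strand appears as its reverse complement. They lie at chr2:152344011-152344310 (minus strand), chr6:7693160-7693459 (minus strand) and chr2:119350992-119351291 (plus strand).
Trib3: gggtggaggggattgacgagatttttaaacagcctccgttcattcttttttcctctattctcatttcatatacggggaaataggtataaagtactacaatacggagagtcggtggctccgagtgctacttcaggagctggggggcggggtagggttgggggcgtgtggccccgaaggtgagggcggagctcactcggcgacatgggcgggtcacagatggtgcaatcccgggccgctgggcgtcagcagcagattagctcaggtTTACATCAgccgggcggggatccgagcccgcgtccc
Asns: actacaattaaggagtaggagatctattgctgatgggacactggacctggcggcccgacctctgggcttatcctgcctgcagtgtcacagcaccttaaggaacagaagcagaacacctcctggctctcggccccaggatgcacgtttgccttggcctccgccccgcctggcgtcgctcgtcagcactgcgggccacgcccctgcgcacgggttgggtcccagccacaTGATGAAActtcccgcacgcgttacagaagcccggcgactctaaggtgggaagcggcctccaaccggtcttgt
Chac1: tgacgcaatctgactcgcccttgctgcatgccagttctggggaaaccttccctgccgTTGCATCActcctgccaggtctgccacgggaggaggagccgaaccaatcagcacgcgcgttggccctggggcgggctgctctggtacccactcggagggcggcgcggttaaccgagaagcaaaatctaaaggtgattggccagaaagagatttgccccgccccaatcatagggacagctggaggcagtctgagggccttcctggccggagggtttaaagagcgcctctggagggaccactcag

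ACGTG was present on either strand in 19.6% of all 32851 promoter windows and TGATGNAA in 3.97%. Counted by gene, ACGTG was found in 12 of the 20 tested glycolysis genes that had a window (60.0%) and in 14 of 20 other HIF targets (70.0%), against 29.4% of the 9537 tested genes with a window. TGATGNAA was found in 6 of 17 ATF4 targets (35.3%), against 2.87% of the genes tested. The same motif was in 0 of 20 glycolysis genes and in 1 of 20 other HIF targets. A match describes letters in a window and not a site that is bound.

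Arg1 was the most uneven of the 4 rule genes. The gene lies at chr10:24915221-24927484 (minus strand, GRCm38), and its UMIs numbered 57 and 138 in the non-efferocytic libraries (Exp. 1 and Exp. 2) and 2130 and 323 in the efferocytic libraries. It was detected in 0.507% and 0.492% of non-efferocytic cells and in 3.38% and 1.06% of efferocytic cells. In the efferocytic library of Exp. 1, 57 cells with at least 10 Arg1 UMIs held 76.9% of that library's Arg1 UMIs, and 47 of these cells were members. The efferocytic library of Exp. 2 had 7 such cells, 4 of them members, with 39.0% of the UMIs. Expressed as UMIs per 1000000 UMIs (CPM), members held 0 and 4.72 CPM of Arg1 in the non-efferocytic libraries and 294 and 58.3 CPM in the efferocytic libraries.

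Ankrd37 was the most often detected rule gene in members. It lies at chr8:45996902-46005707 (minus strand) and was found in 20 of 21 and 22 of 25 non-efferocytic members and in 272 of 313 and 123 of 149 efferocytic members. Members held 114 and 123 CPM of Ankrd37 in the non-efferocytic and 132 and 78.8 CPM in the efferocytic libraries, and remaining cells held 1.49, 1.20, 7.54 and 3.62 CPM in the same order. Egln3, at chr12:54178981-54203860 (minus strand), stood at 34.6, 44.8, 48.3 and 50.3 CPM in members. Ak4, at chr4:101419277-101466995 (plus strand), stood at 30.5, 37.8, 30.9 and 32.8 CPM. Of the members with Egln3, 10 of 13, 9 of 13, 106 of 174 and 53 of 86 had a single UMI of it, and of those with Ak4 11 of 13, 12 of 14, 99 of 132 and 56 of 75 (same order). Such levels are therefore largely fixed by the rule and by the depth of the cells.

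**Figure D1:**
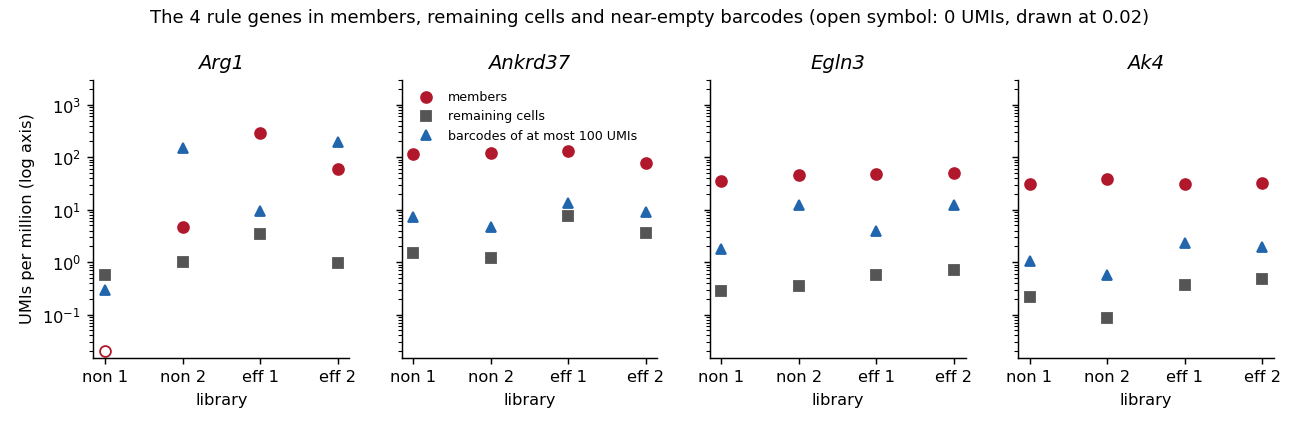
CPM (log axis) of the 4 rule genes in members, remaining cells and near-empty barcodes of each library (non, non-efferocytic; eff, efferocytic; 1 and 2, the experiments). Arg1 in members runs from 0 to 294 CPM, while Egln3 and Ak4 lie between 30.5 and 50.3 CPM in all 4 libraries.

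Free RNA in the droplets was gauged from barcodes with at most 100 UMIs. In Exp. 2 these held 152 CPM (non-efferocytic) and 194 CPM (efferocytic) of Arg1, far above the 0.986 and 0.979 CPM of the remaining cells, while in Exp. 1 they held 0.297 and 9.62 CPM. Krt14, a keratin of skin, stood at 97.0 and 109 CPM in the same barcodes of Exp. 2 and at 0.0361 and 0.0193 CPM in its cells. Hbb-bs, a hemoglobin gene, stood at 6938 and 8223 CPM in these barcodes and at 32.2 and 33.5 CPM in the cells of Exp. 2. Of the 48 Arg1-positive efferocytic members of Exp. 2, 27 had only 1 Arg1 UMI. No share of free RNA in cells was estimated from these levels, and its part in single UMIs of cells was not tested. When Arg1 was counted toward the rule only with 2 or more UMIs, 293 and 127 efferocytic cells met it. Egln3 stood at 12.1 and 12.2 CPM in the same barcodes of Exp. 2 against 0.355 and 0.709 CPM in the remaining cells, and 53 of the 86 efferocytic members of Exp. 2 with Egln3 had a single UMI of it. In Exp. 1 Egln3 stood at 1.78 (non-efferocytic) and 3.99 CPM (efferocytic) in such barcodes, against 0.278 and 0.571 CPM in remaining cells. Ankrd37 was at 7.12 and 4.73 CPM (non-efferocytic Exp. 1 and Exp. 2) and 13.4 and 8.90 CPM (efferocytic) in these barcodes. Remaining cells held 1.49, 1.20, 7.54 and 3.62 CPM of it in the same order. Ak4 was at 1.04, 0.556, 2.36 and 1.92 CPM in the barcodes, against 0.218, 0.0870, 0.369 and 0.486 CPM. Among 52 cells with at least 3 neutrophil and fewer than 3 macrophage markers (medians of 7173 to 14283 UMIs by library), Arg1 was found in 1, Ankrd37 in 6, Egln3 in 12 and Ak4 in 1, and 5 met the rule.

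The share of members was higher in both efferocytic libraries than in either non-efferocytic library. Members made up 21 of 8280 cells (0.254%, exact 95% interval 0.157 to 0.387%) and 25 of 13411 cells (0.186%, 0.121 to 0.275%) in the non-efferocytic libraries of Exp. 1 and Exp. 2. They made up 313 of 6695 cells (4.68%, 4.18 to 5.21%) and 149 of 8408 cells (1.77%, 1.501 to 2.08%) in the efferocytic libraries. The intervals cover counting error only. The means were 3.22% ± 2.05 (SD, n = 2) and 0.220% ± 0.0475 (SD, n = 2), and the efferocytic share was 18.4 times the non-efferocytic one in Exp. 1 and 9.51 times in Exp. 2. The shares count the cells that the rule chose and are given as a description with no test, and 2 against 2 libraries could not give a p below 0.333 in an exact permutation test.

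Depth differed between the groups, so each cell was also thinned to 5000 UMIs, leaving out shallower cells. The rule then held in 1 of 7181 and 2 of 10007 non-efferocytic cells (0.0139% and 0.01999%) and in 119 of 6151 and 36 of 7903 efferocytic cells (1.93% and 0.456%). The order of the libraries by group was kept while the levels fell. With Arg1 left out of the rule, 228 and 112 efferocytic cells (3.41% and 1.33%) and 21 and 23 non-efferocytic cells (0.254% and 0.172%) had at least 2 of the other 3 genes. At least 3 rule genes were found in 88 and 33 efferocytic and in 4 and 1 non-efferocytic cells.

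**Figure D2:**
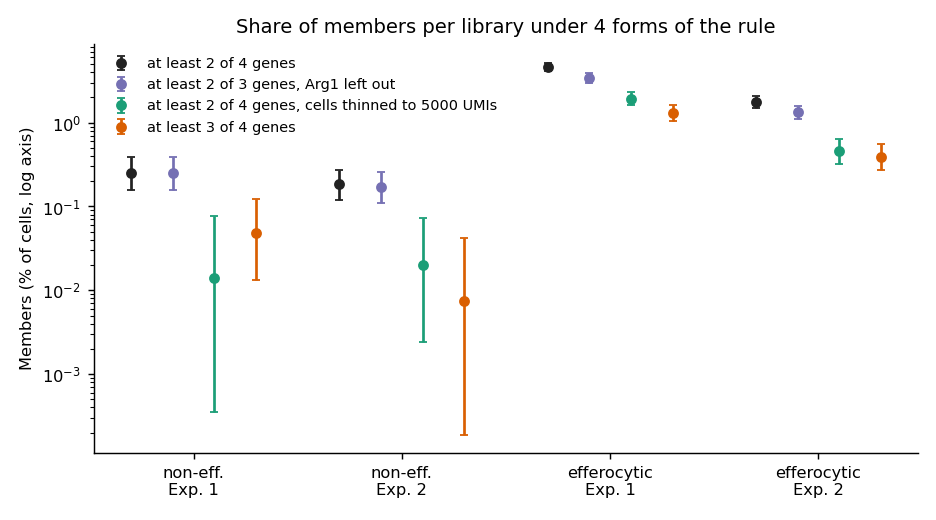
Share of cells that met the rule (percent, log axis) in each library under 4 forms of the rule, with exact 95% intervals for counting error. In each form both efferocytic libraries lie above both non-efferocytic libraries, from 4.68% in the efferocytic library of Exp. 1 to 0.186% in the non-efferocytic library of Exp. 2 under the full rule.

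The rule genes tended to be found in the same cells, and for Arg1 this was seen in the efferocytic libraries. In the efferocytic library of Exp. 1, 65.5% of cells with Arg1 had another rule gene, against 11.9% of cells without Arg1. In that of Exp. 2 the shares were 53.9% and 7.85%. In the non-efferocytic libraries 0 of 42 cells with Arg1 in Exp. 1 (3 counts, the limit that a count of 0 allows, would be 7.14%) and 3.03% of such cells in Exp. 2 had another rule gene, against 2.15% and 1.57% of cells without Arg1. Egln3 accompanied another rule gene in 76.0% and 48.3% of its efferocytic and in 35.1% and 26.0% of its non-efferocytic cells, and Ak4 in 78.1% and 55.1% and in 39.4% and 53.8%. Ankrd37 accompanied another rule gene in 34.7% and 23.6% of its efferocytic cells and in 15.2% and 13.8% of its non-efferocytic cells (Exp. 1 and Exp. 2), against 3.57%, 2.79%, 1.07% and 0.875% of cells without Ankrd37. In thinned cells the Ankrd37 shares were 27.3% and 13.5% in the efferocytic and 1.96% and 3.77% in the non-efferocytic libraries. The commonest pairs among members were Ankrd37 with Egln3 (125 cells), Ankrd37 with Ak4 (101 cells) and Arg1 with Ankrd37 (95 cells), and 13 cells had all 4 genes.

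Cells just outside the rule, with exactly 1 rule gene, numbered 198 and 251 in the non-efferocytic and 682 and 593 in the efferocytic libraries, and cells just inside it, with exactly 2, numbered 17, 24, 225 and 116. Summed over 21 glycolysis genes, the level in the efferocytic library of Exp. 1 was 4284 CPM in cells with 0 rule genes, 6984 in cells with 1, 10026 in cells with 2 and 11974 in cells with 3 or 4. In the efferocytic library of Exp. 2 it was 5186 CPM in cells with 0 rule genes, 8198 in cells with 1, 11377 in cells with 2 and 15124 in cells with 3 or 4. The non-efferocytic libraries stepped in the same order, from 2864 to 11933 CPM in Exp. 1 and from 3025 to 14191 CPM in Exp. 2, where a single cell had 3 rule genes. Other HIF targets went from 1142 to 3190.4 CPM in Exp. 1 and from 1197 to 3969.5 CPM in Exp. 2 over the same steps in the efferocytic libraries. Neutrophil markers did not step with the number, at 94720.4 CPM in non-efferocytic cells of Exp. 1 with 2 rule genes and 32.5 CPM in those with 3 or 4.

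**Figure D3:**
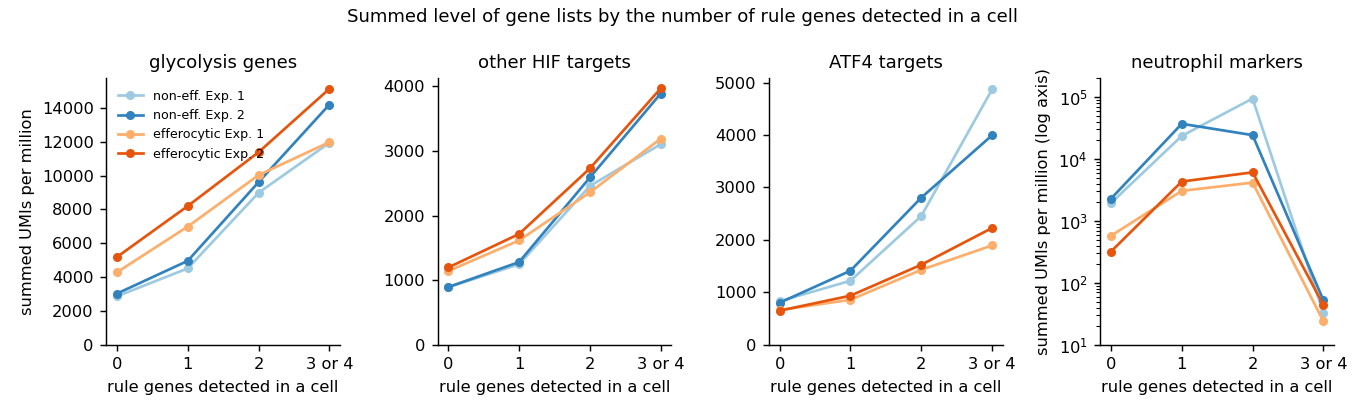
Summed CPM of glycolysis genes, other HIF targets, ATF4 targets and neutrophil markers (the last on a log axis) in cells with 0, 1, 2 and 3 or 4 rule genes, 1 line per library. The first 3 lists step up with the number of rule genes in every library, whereas neutrophil markers are highest in cells with 1 or 2.

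Nearly all members had markers of macrophages, and so did nearly all remaining cells. Among the latter, 99.5% and 99.1% (non-efferocytic Exp. 1 and Exp. 2) and 99.5% and 98.5% (efferocytic) had at least 3 of 10 markers. At least 3 of 10 macrophage markers were detected in 20 of 21, 25 of 25, 312 of 313 and 145 of 149 members (non-efferocytic Exp. 1, Exp. 2, then efferocytic Exp. 1, Exp. 2), and the 10 markers summed to 19811, 21039, 22277 and 18549.7 CPM against 41504, 35641, 33602 and 25186 CPM in the remaining cells. At least 3 neutrophil markers were detected in 7, 3, 5 and 3 members, which is 18 of 508. The shares were 33.3%, 12%, 1.60% and 2.01% of members, against 1.04%, 2.22%, 0.407% and 0.303% of remaining cells. These few members mattered for the sums, because the neutrophil list reached 76909, 23208, 2984 and 4841 CPM in members and 2714, 3322, 862 and 638 CPM in remaining cells. At least 3 fibroblast markers were found in 0, 0, 2 and 1 members, and at least 2 markers of RM1 cells in 0, 1, 2 and 2. Cells called doublets were 0, 2, 19 and 17 of the members and were kept. Among all cells 201 barcodes were shared between libraries, and 4 members had a barcode that was also a cell of another library.

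Members were deeper than the remaining cells in the non-efferocytic libraries and similar to them in the efferocytic ones. Their median was 20921 and 17885 UMIs against 11129 and 9592 in the non-efferocytic libraries, and 15874 and 18331 against 17247 and 17460 in the efferocytic libraries. The mean mitochondrial share was 2.06%, 2.22%, 2.39% and 2.86% in members and 3.28%, 2.99%, 3.11% and 3.47% in remaining cells (non-efferocytic Exp. 1 and Exp. 2, then efferocytic). The share was lower in members of every library. Among the 20 nearest neighbors of a member, with the rule genes left out of the distances, 36.2% and 18.7% were members in the efferocytic libraries and 13.3% and 6.80% in the non-efferocytic libraries, against 2.31%, 1.09%, 0.179% and 0.116% for remaining cells.

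Members held higher levels of glycolysis genes, other HIF targets and ATF4 targets than the remaining cells of the same library, and also of neutrophil genes, which came from few cells. UMIs were summed over members and over remaining cells of each library and compared with library as a block (edgeR quasi-likelihood test, Benjamini-Hochberg adjustment, the 4 rule genes left out). Of 12359 genes, 617 (4.99%) were higher and 353 (2.86%) lower in members. The groups did not overlap, meaning that all 4 member values lay above all 4 others, for 744 genes (6.02%), and below for 1125 (9.10%). The median log2 fold change over all genes was -0.03.

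Of 21 glycolysis genes, 17 were higher in members and 0 lower, with a median log2 fold change of 1.38, and 16 did not overlap. Slc2a1, the glucose transporter GLUT1, stood at 57.0 and 106 CPM in non-efferocytic members (Exp. 1 and Exp. 2), 71.3 and 75.8 CPM in efferocytic members, 10.1 and 9.02 CPM in the remaining non-efferocytic cells and 12.2 and 13.5 CPM in the remaining efferocytic cells, a log2 fold change of 2.72 ± 0.19 (SE, n = 4 libraries; edgeR adjusted p = 3.76e-05). All 4 member values lay above all remaining ones. Slc16a3, which exports lactate, stood at 91.6 and 127 CPM in non-efferocytic members (Exp. 1 and Exp. 2), 93.2 and 112 CPM in efferocytic members, 12.8 and 12.98 CPM in the remaining non-efferocytic cells and 18.8 and 22.7 CPM in the remaining efferocytic cells, with a log2 fold change of 2.60 ± 0.17 (SE, n = 4 libraries; edgeR adjusted p = 3.76e-05). Ldha, the lactate dehydrogenase subunit that turns pyruvate into lactate, stood at 953 and 909 CPM in non-efferocytic members (Exp. 1 and Exp. 2), 1190.4 and 1333 CPM in efferocytic members, 212 and 213 CPM in the remaining non-efferocytic cells and 415 and 465 CPM in the remaining efferocytic cells, with a log2 fold change of 1.81 ± 0.13 (SE, n = 4 libraries; edgeR adjusted p = 3.76e-05). These genes, too, separated members from remaining cells without overlap. Eno1 (log2 fold change 1.87), Pgk1 (1.57) and Pdk1 (1.505), which holds pyruvate back from mitochondria, were also higher, each with an adjusted p of at most 0.000427 in edgeR. The genes not called were Slc2a3 (0.38), Pfkfb4 (-0.11), Aldoc (0.50) and Eno2 (0.86), named after their values were seen.

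Of 27 other HIF targets tested, 19 were higher in members and 0 lower, with a median log2 fold change of 1.29, and 16 did not overlap. Ero1l, an oxidase that forms disulfide bonds in the endoplasmic reticulum (ER), stood at 521 and 536 CPM in non-efferocytic members (Exp. 1 and Exp. 2), 237 and 441 CPM in efferocytic members, 20.8 and 22.3 CPM in the remaining non-efferocytic cells and 30.7 and 36.5 CPM in the remaining efferocytic cells, with a log2 fold change of 3.91 ± 0.26 (SE, n = 4 libraries; edgeR adjusted p = 3.76e-05). It was highest in non-efferocytic members and had the largest rise of any gene in this list. Bnip3, a mitophagy receptor, stood at 83.5 and 102 CPM in non-efferocytic members (Exp. 1 and Exp. 2), 167 and 169.6 CPM in efferocytic members, 22.7 and 22.4 CPM in the remaining non-efferocytic cells and 25.6 and 25.5 CPM in the remaining efferocytic cells, a log2 fold change of 2.44 ± 0.16 (SE, n = 4 libraries; edgeR adjusted p = 3.76e-05). Mif, a cytokine of macrophages and tumors, stood at 633 and 763 CPM in non-efferocytic members (Exp. 1 and Exp. 2), 881 and 1059 CPM in efferocytic members, 167 and 172 CPM in the remaining non-efferocytic cells and 416 and 442 CPM in the remaining efferocytic cells, with a log2 fold change of 1.58 ± 0.17 (SE, n = 4 libraries; edgeR adjusted p = 0.000306). Ddit4, an inhibitor of mTORC1, was higher by 2.70, and Adm, the vasodilator adrenomedullin, by 3.05 on the log2 scale although it was at 0 CPM in non-efferocytic members of Exp. 1 (edgeR adjusted p = 0.0102 and 0.00985). Eno1 and Mif have near-identical copies in the genome, and their counts are uncertain to that extent.

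Of 7 genes of the oxygen-sensing system tested, 1 passed the test. Egln1, the main prolyl hydroxylase, was higher at 46.8 and 47.2 CPM in non-efferocytic members (Exp. 1 and Exp. 2), 51.0 and 59.7 CPM in efferocytic members, 24.8 and 24.6 CPM in the remaining non-efferocytic cells and 26.1 and 31.3 CPM in the remaining efferocytic cells, a log2 fold change of 0.93 ± 0.13 (SE, n = 4 libraries; edgeR adjusted p = 0.00127). Hif1a stood at 52.9 and 51.9 CPM in non-efferocytic members (Exp. 1 and Exp. 2), 39.6 and 52.0 CPM in efferocytic members, 58.5 and 51.6 CPM in the remaining non-efferocytic cells and 42.4 and 45.2 CPM in the remaining efferocytic cells, with a log2 fold change of -0.0026 ± 0.13 (SE, n = 4 libraries; edgeR adjusted p = 0.998), and its sign changed with the processing. Epas1, which encodes HIF-2α, had a log2 fold change of 0.25 ± 0.16 (SE, n = 4 libraries; edgeR adjusted p = 0.435). The member and remaining values of Hif1a and Epas1 overlapped. Messenger RNA levels do not report HIF protein. Of the 12 hypoxia genes that the study had displayed from these libraries, 4 were higher and 0 lower, and since they were picked on these samples the count is not independent.

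Of 18 ATF4 targets tested, 14 were higher in members and 0 lower, with a median log2 fold change of 1.72, and 13 did not overlap. Trib3 stood at 57.0 and 70.8 CPM in non-efferocytic members (Exp. 1 and Exp. 2), 21.6 and 28.5 CPM in efferocytic members, 2.07 and 2.70 CPM in the remaining non-efferocytic cells and 2.19 and 2.79 CPM in the remaining efferocytic cells, a log2 fold change of 3.91 ± 0.29 (SE, n = 4 libraries; edgeR adjusted p = 3.76e-05). Phgdh, the first enzyme of serine synthesis, stood at 61.1 and 82.6 CPM in non-efferocytic members (Exp. 1 and Exp. 2), 21.6 and 42.9 CPM in efferocytic members, 2.70 and 4.11 CPM in the remaining non-efferocytic cells and 4.14 and 5.83 CPM in the remaining efferocytic cells, with a log2 fold change of 3.33 ± 0.33 (SE, n = 4 libraries; edgeR adjusted p = 0.000233). Asns stood at 99.7 and 102 CPM in non-efferocytic members (Exp. 1 and Exp. 2), 33.3 and 50.6 CPM in efferocytic members, 5.60 and 5.54 CPM in the remaining non-efferocytic cells and 7.51 and 11.3 CPM in the remaining efferocytic cells, with a log2 fold change of 2.98 ± 0.35 (SE, n = 4 libraries; edgeR adjusted p = 0.000557). In these 3 genes the non-efferocytic members held the highest values. Chac1 was higher by 4.03 ± 0.59 (SE, edgeR adjusted p = 0.00223).

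**Figure D4:**
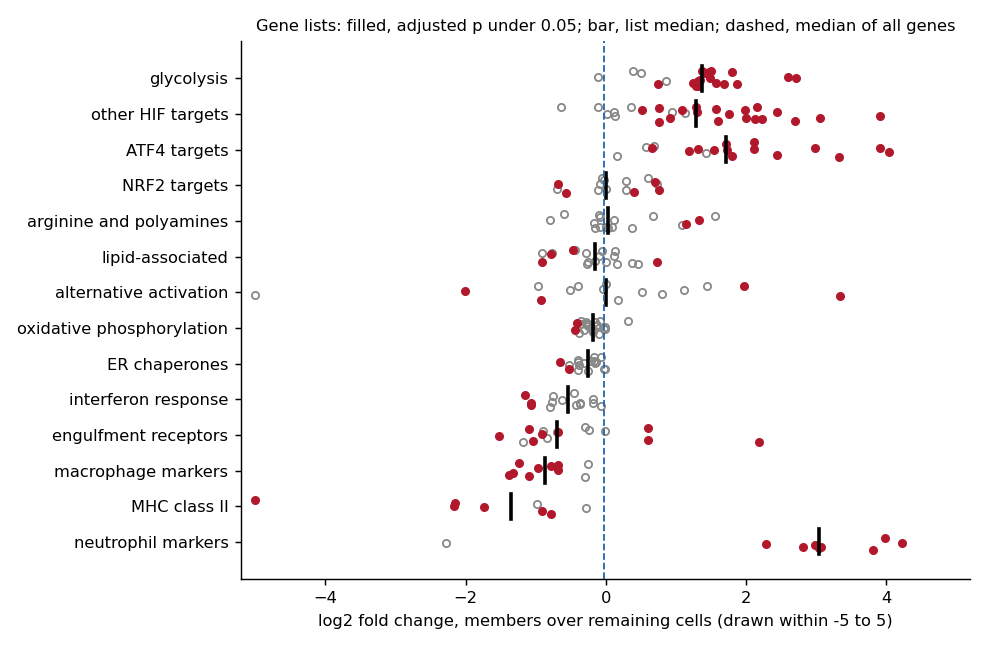
Log2 fold change of each tested gene of the lists, members over remaining cells (drawn within -5 to 5), with called genes filled, list medians as bars and the median of all genes dashed. The glycolysis, other HIF and ATF4 lists lie to the right with medians of 1.38, 1.29 and 1.72, and the MHC class II and macrophage lists to the left with medians of -1.36 and -0.87.

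These 3 lists kept their direction under the other processing tried. In each alternative 16 to 19 glycolysis genes, 14 to 23 other HIF targets and 10 to 15 ATF4 targets were higher and 0 were lower. Without cells that had at least 3 neutrophil markers or fewer than 3 macrophage markers, 17 of 21, 19 of 27 and 13 of 17 were higher. Over the efferocytic libraries alone, 19 of 21, 23 of 27 and 15 of 18 were higher, and against remaining cells of matched depth 17 of 20, 16 of 24 and 12 of 15. Over all genes, these fits called 1519 of 12724 and 446 of 9195 higher, in that order. Leaving out the non-efferocytic library of Exp. 2 left 353 higher and 92 lower genes in all, with 16, 14 and 11 higher in the 3 lists, and leaving out that of Exp. 1 gave 602 lower genes.

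The largest rises outside these lists were genes of neutrophil granules and myeloid progenitors, and they came from few cells. Elane (neutrophil elastase) rose by 3.98, Mpo (myeloperoxidase) by 4.23, Prtn3 (proteinase 3) by 3.81, Ctsg (cathepsin G) by 4.15, and Myl10 by 4.38 on the log2 scale. Ms4a3 and Prss57, genes of granulocyte and monocyte progenitors, rose by 3.99 and 4.10. Ly6c2, a surface protein of monocytes, and Plac8 rose by 3.87 and 3.33, Chil3 by 3.34, S100a8 by 3.06, Lcn2 by 2.69, Kit by 3.83, Hdc by 2.65 and Nkg7 by 3.63. Of 9 neutrophil markers tested 8 were higher, and of 8 monocyte markers 4. In each library, the 7, 3, 5 and 3 members with at least 3 neutrophil markers held 91.2 to 100% of the members' UMIs of each gene named in this paragraph, the lowest share being that of Plac8 in the efferocytic library of Exp. 2. Without such cells Chil3, Prtn3 and Plac8 had log2 fold changes of -0.56, -1.95 and -1.27, none past the threshold in edgeR. Neutrophil markers chose the cells that were left out, so that lower values of these markers without them follow from the choice.

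Without those cells, a rule chosen after seeing the data, the largest rises by the same criteria were Ero1l (4.15), Trib3 (4.03), Htra4 (3.72), Slc13a3 (3.54), Prss46 (3.48), Bdh2 (3.44), Phgdh (3.38), Acod1 (3.12), Procr (3.101) and Col18a1 (3.06). Acod1 makes itaconate from a citric acid cycle intermediate, Slc13a3 carries dicarboxylates such as succinate into cells, and Procr is the endothelial protein C receptor. Htra4 and Prss46 belong to protease families. Each of these 10 genes passed the edgeR threshold with an adjusted p of at most 0.00211 and was higher in members of all 4 libraries. Htra4 was uneven, however. Exp. 1 members held 77.0 (non-efferocytic) and 5.61 CPM (efferocytic) of it, and Exp. 2 members 5.52 and 0.686 CPM. Remaining cells held 1.54, 0.557, 0.698 and 0.304 CPM, listed the same way. A high level of Htra4 was thus limited to members of the non-efferocytic library of Exp. 1. Fam26f (-1.74), Rapsn (-1.71) and Tgfbi (-1.63) joined the largest falls.

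Genes lower in members included MHC class II, complement and resident macrophage genes. Of 8 MHC class II genes, 6 were lower and 0 higher, with a median of -1.36. H2-Eb1 stood at 2.04 and 11.8 CPM in non-efferocytic members (Exp. 1 and Exp. 2), 1.70 and 1.68 CPM in efferocytic members, 37.1 and 88.8 CPM in the remaining non-efferocytic cells and 2.33 and 8.68 CPM in the remaining efferocytic cells, a log2 fold change of -2.16 ± 0.39 (SE, n = 4 libraries; edgeR adjusted p = 0.00707). Cd74, the invariant chain, stood at 30.5 and 127 CPM in non-efferocytic members (Exp. 1 and Exp. 2), 19.7 and 20.8 CPM in efferocytic members, 324 and 567 CPM in the remaining non-efferocytic cells and 27.8 and 63.4 CPM in the remaining efferocytic cells, with a log2 fold change of -1.74 ± 0.32 (SE, n = 4 libraries; edgeR adjusted p = 0.00824), and H2-Aa fell by 2.15. Ciita, the activator of these genes, had 0 UMIs in members of every library, where 3 UMIs would be 6.11, 7.08, 0.510 and 1.01 CPM, and stood at 6.63 and 7.93 CPM in the remaining non-efferocytic and 0.596 and 0.434 CPM in the remaining efferocytic cells. In efferocytic libraries H2-Eb1, Cd74 and Ciita were lower in remaining cells too than in those of the non-efferocytic libraries. Ctss, a protease that trims the invariant chain, made up most of the list's summed level and was not called, with a log2 fold change of -0.29 ± 0.14 (SE, n = 4 libraries; edgeR adjusted p = 0.283). Summed over the list, efferocytic members held 5115 and 4787 CPM against 4946 and 4722 CPM in the remaining cells of their libraries, and non-efferocytic members held 3063 and 3809 CPM against 5395 and 6175 CPM. The sum was thus slightly higher in members of both efferocytic libraries. Ctss was named after its values were seen. Only 2 of the 8 did not overlap. Ciita was counted among these 2 and among the 6 lower genes. With 0 UMIs in members it could pass the abundance filter only through remaining cells, so its direction was set in advance.

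Selenop, a secreted selenium carrier, stood at 419 and 505 CPM in non-efferocytic members (Exp. 1 and Exp. 2), 816 and 481 CPM in efferocytic members, 3076 and 2616 CPM in the remaining non-efferocytic cells and 1530.4 and 882 CPM in the remaining efferocytic cells, with a log2 fold change of -1.73 ± 0.30 (SE, n = 4 libraries; edgeR adjusted p = 0.00629). Hpgd, which degrades prostaglandins, stood at 26.5 and 9.44 CPM in non-efferocytic members (Exp. 1 and Exp. 2), 9.70 and 2.35 CPM in efferocytic members, 174 and 102 CPM in the remaining non-efferocytic cells and 36.2 and 9.83 CPM in the remaining efferocytic cells, with a log2 fold change of -2.33 ± 0.21 (SE, n = 4 libraries; edgeR adjusted p = 0.000124). Both were lower in members of each library. Fgd2 (-1.71), Ighm (-1.59), Cyp27a1 (-1.55), a sterol hydroxylase, and Ednrb (-1.54), the endothelin B receptor, were the other large falls. Of 10 macrophage markers, 8 were lower and 0 higher (median -0.87), and 6 did not overlap. C1qa, C1qb and C1qc, the chains of complement C1q, fell by 1.24, 1.39 and 1.32 on the log2 scale.

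Of 15 genes for recognizing and engulfing apoptotic cells, 5 were lower, 3 higher and 7 did not overlap in the lower direction (median -0.70). Gas6, the bridge between phosphatidylserine and its receptors, stood at 48.9 and 73.2 CPM in non-efferocytic members (Exp. 1 and Exp. 2), 233 and 279.9 CPM in efferocytic members, 441 and 373 CPM in the remaining non-efferocytic cells and 406 and 478 CPM in the remaining efferocytic cells, with a log2 fold change of -1.52 ± 0.32 (SE, n = 4 libraries; edgeR adjusted p = 0.016). Mertk, such a receptor, changed by -1.09 and Stab1, a scavenger receptor that binds phosphatidylserine, by -1.04. Cd300lf, another lipid receptor, went the other way, at 61.1 and 23.6 CPM in non-efferocytic members (Exp. 1 and Exp. 2), 73.8 and 101 CPM in efferocytic members, 4.35 and 5.60 CPM in the remaining non-efferocytic cells and 22.6 and 26.8 CPM in the remaining efferocytic cells, with a log2 fold change of 2.18 ± 0.28 (SE, n = 4 libraries; edgeR adjusted p = 0.000859). Cd300lf and Plau (1.18), a plasminogen activator, were the 2 of 5 genes called from a list that had been picked as high in efferocytic cells of these libraries.

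The lower calls depended on the samples and the scale. Without the non-efferocytic library of Exp. 2, 0 of 8 MHC class II genes, 1 of 10 macrophage markers and 0 of 15 engulfment genes were lower. Without the library block these counts were 0, 2 and 3. When libraries were scaled to UMIs per cell, which moved the median of all genes from -0.03 to 0.31, 674 genes were higher and 32 lower, with 4 MHC class II genes, 2 macrophage markers and 1 engulfment gene among the lower. Neutrophil markers moved with membership in the same sums, and without cells that held them 6 MHC class II genes, 8 macrophage markers and 6 engulfment genes were lower.

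Arginine and polyamine genes other than Arg1 hardly differed as a list. Of 17 tested, 2 were higher and 0 lower (median 0.03). Slc7a1, a carrier of arginine, was higher by 1.33 and Azin1, an inhibitor of antizyme, by 1.14 (edgeR adjusted p = 0.0464 and 0.00144). Against remaining cells of matched depth Slc7a1 was not called (adjusted p = 0.0757, edgeR), and without the library block 0 of the 17 were. Among 15 genes of alternative activation, Chil3 and Klf4 (1.98), a transcription factor, were higher, and Clec10a (-2.01) and Mrc1 (-0.93), both lectins, lower. Of 15 inflammatory genes, Lcn2 was higher and Cxcl10 was lower (-3.36). Members with neutrophil markers held 99.6 to 100% of the members' UMIs of Chil3 and 99.9 to 100% of those of Lcn2, by library. Without such cells Chil3 was at -0.56 and was not called.

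In 15 NRF2 targets, genes that respond to oxidants, 3 were higher and 2 lower (median 0.0028). Hmox1, which degrades heme, was higher by 0.75 and Txnrd1, a thioredoxin reductase, by 0.70, while Blvrb and G6pdx changed by -0.69 and -0.57. Of 19 genes of lipid-associated macrophages, 1 was higher and 3 lower, among them Plin2, a coat protein of lipid droplets (0.73), Fabp5 (-0.90), Acp5 (-0.78) and Lipa (-0.46). Of 17 ER chaperone and stress genes, 0 were higher and 2 lower, Calr (-0.65) and Hspa5 (-0.53), with 13 lower over the efferocytic libraries alone and 0 without the library block or when scaled to UMIs per cell. The fit over the efferocytic libraries alone called more genes of any kind, with 1397 of 12724 lower, against 353 of 12359 in the main fit. Of 22 oxidative phosphorylation genes, 0 were higher and 2 lower, Sdha (-0.43) and Sdhb (-0.41), the latter at 0.02 when scaled to UMIs per cell, and 13 were lower over the efferocytic libraries alone. The count of these genes lower was 0 at matched depth, without the library block, at a mean of at least 10 CPM, scaled to UMIs per cell and without any 1 of the libraries except the non-efferocytic one of Exp. 1. Of 14 interferon response genes 3 were lower, Ifit3 (-1.16), Ifit1 (-1.07) and Usp18 (-1.07), and over the efferocytic libraries 11, but 0 with DESeq2, at matched depth, without the library block, at a mean of at least 10 CPM and when scaled to UMIs per cell. Of 16 cell cycle genes 2 were higher, Rrm2 (1.88), which was at -0.39 without the cells with neutrophil markers, and Ccnb1 (0.87). None was higher at matched depth, without the block, at a mean of at least 10 CPM, without the non-efferocytic library of Exp. 2 or without cells with neutrophil markers, and with the rule on thinned cells 0 were higher and 7 lower. Of 7 fibroblast markers 0 were called, with 0 at an unadjusted p under 0.05 in edgeR and 0 called by DESeq2, and of 5 RM1 markers 1 was higher, Cav1 (1.53). Among the few tested markers of other cells, 2 of 2 basophil and mast cell markers and 1 of 2 lymphoid markers were higher, 1 of 5 osteoclast markers was lower, and 0 of 1 dendritic and 0 of 1 eosinophil markers were called. The markers higher there were Kit, Hdc and Nkg7, and all of their UMIs in members lay in members with neutrophil markers. None of 7 erythroid markers was abundant enough to be tested.

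Members were spread over several clusters when cells were clustered within each library without the rule genes, and the clusters differed in how many of their cells were members. In the efferocytic library of Exp. 1, 137 members (43.8%) were in a cluster of 307 cells led by Arg1 and F13a1, of which they made up 44.6%, and another 92 were in a cluster of 293 cells led by Mgam, Trib3 and Phgdh (31.4%). In the efferocytic library of Exp. 2, 64 of 149 members were in a cluster of 298 cells led by the same kind of genes (21.5%). In the non-efferocytic library of Exp. 2, 17 of 25 were in a cluster of 199 cells led by Acod1 and Asns (8.54%). In that of Exp. 1, 14 of 21 were spread in a cluster of 2058 cells and 7 in a cluster of 75 cells led by neutrophil genes. In the other clusters of the efferocytic libraries that held members, the share was 0.546 to 5.32%. A cluster led by Arg1 and F13a1 was seen in 1 library of the 4, so whether it belongs to a state of macrophages or to that library cannot be told apart.

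Members of these clusters differed in Arg1 and ATF4 targets and resembled each other in glycolysis genes, as a description without a test. Cells were clustered by expression and the clusters picked and named by their leading genes. Differences in such genes, Trib3, Phgdh, Mgam and F13a1 among them, thus follow in part from the clustering. Arg1 was at 523 CPM in the Arg1- and F13a1-led cluster, 206 and 33.3 CPM in the Mgam- and Trib3-led clusters of Exp. 1 and Exp. 2, and 6.79 CPM in the non-efferocytic cluster of Exp. 2. F13a1, the A subunit of coagulation factor XIII, was at 160.0 CPM in the Arg1- and F13a1-led cluster, 9.19 and 4.99 CPM in the Mgam- and Trib3-led clusters of Exp. 1 and Exp. 2, and 3.40 CPM in the non-efferocytic cluster of Exp. 2. Trib3 was at 2.11 CPM in the Arg1- and F13a1-led cluster, 59.3 and 60.7 CPM in the Mgam- and Trib3-led clusters of Exp. 1 and Exp. 2, and 67.9 CPM in the non-efferocytic cluster of Exp. 2. The Arg1-led members thus stood lowest in Trib3, and they held 0 UMIs of Phgdh and Mgam. Ero1l was at 74.8 CPM in the Arg1- and F13a1-led cluster, 546 and 929 CPM in the Mgam- and Trib3-led clusters of Exp. 1 and Exp. 2, and 486 CPM in the non-efferocytic cluster of Exp. 2, and Slc2a1 at 68.4 CPM in the Arg1- and F13a1-led cluster, 109.8 and 119 CPM in the Mgam- and Trib3-led clusters of Exp. 1 and Exp. 2, and 116 CPM in the non-efferocytic cluster of Exp. 2. Ldha was at 1276 CPM in the Arg1- and F13a1-led cluster, 1427 and 1548 CPM in the Mgam- and Trib3-led clusters of Exp. 1 and Exp. 2, and 999 CPM in the non-efferocytic cluster of Exp. 2. Summed ATF4 targets were at 869, 2989, 2964 and 3189.9 CPM, and summed glycolysis genes at 11201, 12653, 14223 and 10766 CPM in the same order. In the remaining cells of the same clusters ATF4 targets summed to 740, 2161, 2163 and 2837.5 CPM. Glycolysis genes summed to 9450, 7363, 8265 and 6330 CPM in these cells. The level of ATF4 targets was thus shared in large part by cells of these clusters that did not meet the rule. Cells with like expression were grouped together, so this sharing, too, follows in part from the clustering.

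**Figure D5:**
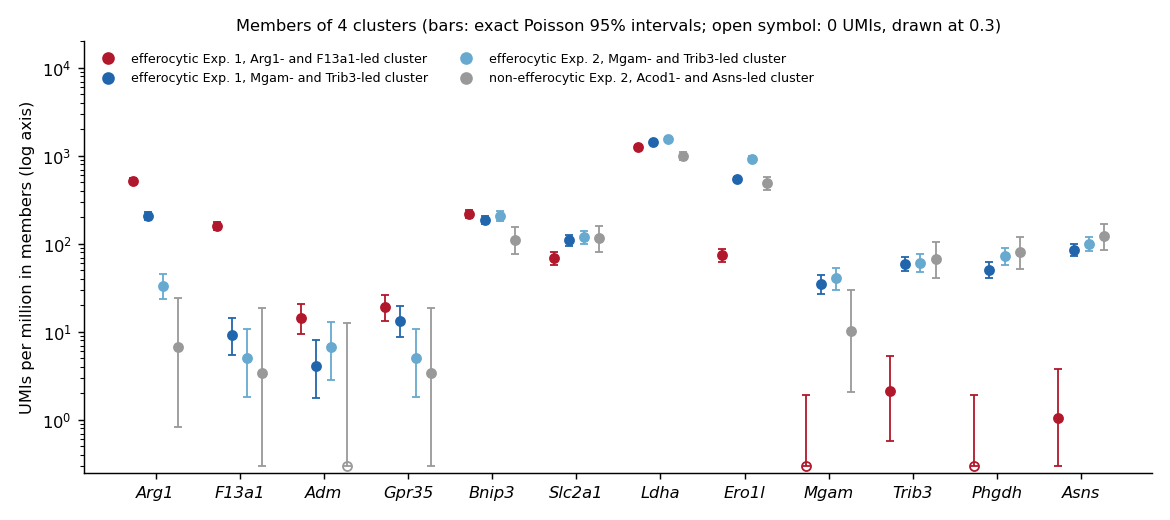
CPM (log axis) of 12 genes in members of 4 clusters, with exact Poisson 95% intervals for counting error and open symbols for 0 UMIs. Ldha and Bnip3 lie close together in all 4, while Trib3, Phgdh and Asns lie far lower in the Arg1- and F13a1-led cluster.

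Among members of the efferocytic libraries, those with an Arg1 UMI (Arg1-positive) were compared with those without (Arg1-negative). Arg1-positive members numbered 148 and 48 and Arg1-negative members 165 and 101. Of the Arg1-positive members 37 and 27 had a single Arg1 UMI, and the part of free RNA in these was not tested. Arg1 is a rule gene, so Arg1-negative members had at least 2 of Ankrd37, Egln3 and Ak4 by construction, while 63 and 11 Arg1-positive members did. In Arg1-negative members 25 and 22 had 3 rule genes. The groups thus differed in rule genes other than Arg1 by the way they were chosen, and the part of this in the lists below was not tested in that comparison. Of 8888 genes, 430 (4.84%) were called, 182 (2.05%) higher and 248 (2.79%) lower in Arg1-positive members (edgeR, library as a block, 2 libraries, 1 residual degree of freedom). Of 15 ATF4 targets tested 10 were lower and 0 higher (median -1.35, against 5.92e-05 over all genes). Trib3 (-1.82), Phgdh (-1.72), Asns (-1.50) and Chac1 (-3.20) were among them, named after their values were seen. In a comparison added after seeing the data, both groups were limited to members with at least 2 of Ankrd37, Egln3 and Ak4 (63 and 11 against 165 and 101 cells), so that Arg1-positive members had 3 or 4 rule genes and Arg1-negative members 2 or 3. It called 100 genes higher and 101 lower, and of 14 ATF4 targets 1 was lower and 0 higher, with a median of -0.46. These sums held fewer Arg1-positive cells, and the part of that in the lower count was not tested.

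Cd72, a lectin-like receptor of B cells and macrophages, was at 141 CPM in Arg1-positive and 58.3 CPM in Arg1-negative members of Exp. 1, and 123 and 24.3 CPM in those of Exp. 2, a log2 fold change of 1.71 ± 0.18 (SE, n = 2 libraries; edgeR adjusted p = 1.01e-06). Tnip3, an inhibitor of NF-κB signaling, was at 44.4 CPM in Arg1-positive and 17.3 CPM in Arg1-negative members of Exp. 1, and 27.0 and 7.93 CPM in those of Exp. 2 (log2 fold change 1.51). Matk (1.35), Hyal1 (1.25), which digests hyaluronan, and Gcnt1 (1.25) were the other large rises. Of 19 genes of lipid-associated macrophages 9 were higher and 1 lower, with Lpl (0.95) and Cd36 (0.66) among the higher, and of 10 macrophage markers 6 were higher. In these members 3 of 20 glycolysis genes were lower and 0 higher, and of 24 other HIF targets 1 was higher and 5 lower, with Ero1l at -1.50. With at least 2 other rule genes in both groups, 2 of 20 glycolysis genes were higher and 0 lower, 2 of 23 other HIF targets were higher and 2 lower, 1 macrophage marker was higher, and 8 of 19 genes of lipid-associated macrophages were higher and 0 lower. Cd72 and Tnip3 passed the threshold there too, both higher.

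The largest falls in Arg1-positive members came from few cells. Col1a1, Mgp, Mpo and Ltf had 0 UMIs in Arg1-positive members of both libraries and stood at 123 and 120.4, 70.4 and 10.4, 45.3 and 45.6, and 50.5 and 30.2 CPM in Arg1-negative members (Exp. 1 and Exp. 2). Genes with 0 UMIs in Arg1-positive members could pass the abundance filter only through Arg1-negative members, so their direction was set in advance. They are counted among the genes called lower. Neutrophil markers as a list did not fall in both. They summed to 19.5 CPM in Arg1-positive and 5048 CPM in Arg1-negative members of Exp. 1, and to 4913 and 4807 CPM in those of Exp. 2. Col3a1 fell by 7.37. The 2 and 1 members with at least 3 fibroblast markers held 98.9 to 100% of the members' UMIs of Col1a1, Col3a1 and Mgp, and those with neutrophil markers held all of those of Mpo and Ltf. Calls in this comparison varied with the test. DESeq2 called 9 higher and 26 lower with 0 ATF4 targets, and Arg1-negative members matched on UMIs gave 55 and 99 with 9 ATF4 targets lower. When Arg1-positive members were limited to those with at least 2 Arg1 UMIs (111 and 21 cells, chosen after seeing the data), 83 genes were higher and 153 lower, with 8 of 14 ATF4 targets lower.

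Efferocytic members were then compared with non-efferocytic members, with the experiment as a block. Of 8602 genes, 160 (1.86%) were called, 53 (0.616%) higher and 107 (1.24%) lower in efferocytic members (edgeR, n = 2 libraries per group, median of all genes 0.00039). Of 19 glycolysis genes 0 were called (median 0.14), by edgeR and by DESeq2 alike, and 1 had an unadjusted p under 0.05. Of 23 other HIF targets 1 was higher, Ndrg1 (1.27, named after its value was seen). Of 15 ATF4 targets 3 were lower, Trib3 (-1.36), Asns (-1.31) and Slc7a11 (-2.22), and 7 of 16 without cells with neutrophil markers. A gene that did not pass this test may still differ, given 21 and 25 cells in the non-efferocytic sums. Fits without 1 library held no experiment block, since the block would leave no residual degrees of freedom, and the lone library of a group was assumed to vary like the other group. They gave 104, 204, 96 and 120 higher genes without the non-efferocytic library of Exp. 1 or Exp. 2 or the efferocytic library of Exp. 1 or Exp. 2, and 326 lower genes without the non-efferocytic library of Exp. 2, against 68 higher and 142 lower without the block over all 4 libraries.

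Cdkn1c, an inhibitor of cell division, stood at 0 and 2.36 CPM in the non-efferocytic members and 36.6 and 41.6 CPM in the efferocytic ones, a log2 fold change of 5.08 ± 0.72 (SE, edgeR adjusted p = 0.011). Of 19 genes of lipid-associated macrophages 4 were higher and 0 lower, namely Spp1 (2.05), Fabp4 (1.18), Cd36 (1.56) and Ctsl (1.51). Remaining cells shifted the same way, with this list summing to 56294 and 54984 CPM in efferocytic and 42427 and 44292 CPM in non-efferocytic libraries. Cdkn1c was also among the leading genes of clusters made up mostly of remaining cells, in the efferocytic libraries and the non-efferocytic one of Exp. 2. Sparc was at 2.04 and 2.36 CPM in the non-efferocytic members and 39.5 and 53.3 CPM in the efferocytic ones (4.35 on the log2 scale). Col1a2, Col3a1 and Mgp had 0 UMIs in non-efferocytic members. In each efferocytic library, 98.1 to 100% of the members' UMIs of these 3 genes lay in members with fibroblast markers, 3 cells in all. Their share of Sparc was not counted. Col1a2 stood at 53.8 and 78.5 CPM, Col3a1 at 39.0 and 29.5 CPM and Mgp at 41.5 and 7.04 CPM in efferocytic members, where 3 UMIs in non-efferocytic members would be 6.11 and 7.08 CPM. All 4 fibroblast markers tested were higher. Those with 0 UMIs in non-efferocytic members could pass the abundance filter only through the efferocytic members, so their direction was set in advance. The part of the members with fibroblast markers in other genes was not tested.

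Lower in efferocytic members were Siglece, an inhibitory sialic acid receptor, at 12.2 and 28.3 CPM in the non-efferocytic members and 0.340 and 0.335 CPM in the efferocytic ones (-5.54), and AW112010 at 38.7 and 404 CPM in the non-efferocytic members and 4.93 and 3.35 CPM in the efferocytic ones (-5.02). Wfdc21, Lcn2 and Serpinb1a changed by -4.30, -3.91 and -3.85, and 7 of 8 neutrophil markers were lower. In the 2 non-efferocytic libraries, 10 of 46 members had neutrophil markers and held 99.9 to 100% of the members' Lcn2 UMIs. Their share of Siglece, AW112010, Wfdc21 and Serpinb1a was not counted. Without cells with neutrophil markers 39 genes were higher and 68 lower.

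Whether members stood apart from their own library by the same amount in both groups was tested as an interaction. The interaction is the log2 fold change of members over remaining cells in efferocytic libraries minus that in non-efferocytic libraries. Of 13069 genes, it was above 0 for 360 called genes (2.75%) and below 0 for 304 (2.33%) (edgeR, library as a block), with a median of 0.15 over all genes. Of 21 glycolysis genes, 7 had a smaller rise in efferocytic libraries and 0 a larger one, and of 19 ATF4 targets 6 and 0. Eno1 stood at 590.3 and 571 CPM in non-efferocytic members (Exp. 1 and Exp. 2), 558 and 681 CPM in efferocytic members, 104 and 122 CPM in the remaining non-efferocytic cells and 206 and 249 CPM in the remaining efferocytic cells, an interaction of -0.88 (adjusted p = 0.000951, edgeR). Its level in members was similar in the 4 libraries, while the remaining efferocytic cells stood above the remaining non-efferocytic ones. Of 10 macrophage markers 5 and of 8 MHC class II genes 3 had a smaller fall in efferocytic libraries.

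The smallest adjusted p in that test belonged to Col1a2, Col1a1, Sparc, Plaur and Apoe. In efferocytic members, 98.1 to 100% of the Col1a1 and Col1a2 UMIs came from the 2 and 1 members with fibroblast markers (Exp. 1 and Exp. 2). The share of these cells in Sparc was not counted. Plaur, the urokinase receptor, stood at 370.4 and 333 CPM in non-efferocytic members against 34.6 and 39.2 CPM, and at 136 and 190.4 CPM in efferocytic members against 52.6 and 61.3 CPM, an interaction of -1.72. Apoe, a lipid carrier, stood at 5563 and 4544 CPM in non-efferocytic members against 17008 and 15428 CPM, and at 9928 and 6957 CPM in efferocytic members against 11144 and 7300.3 CPM, an interaction of 1.61. Members of both groups were lower in Apoe than remaining cells, and by less in the efferocytic libraries. Without the library block 3 and 0 genes passed. Leaving out the efferocytic library of Exp. 1 gave 55 above and 60 below 0, that of Exp. 2 gave 116 and 87, and leaving out the non-efferocytic library of Exp. 2 gave 836 and 629.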

How the data were processed

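The deposited matrices of 4 libraries hold raw UMI counts per gene and barcode, which the authors made with Cell Ranger on build mm10. The submitters' processing notes name Cell Ranger 3.0.0 and Seurat 3.1, while the file headers give Cell Ranger 3.0.0 for Exp. 1 and 3.1.0 for Exp. 2. The matrices were not filtered to cells, and no values were normalized. A barcode counted as a cell from 200 genes and 1000 UMIs upward, provided that mitochondrial UMIs did not exceed 10%. Total UMIs in cells were 101216659 and 138349389 in the non-efferocytic and 124997895 and 155224183 in the efferocytic libraries. The members, gene lists and tests were chosen with earlier results of these data known.

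UMI counts were summed per library over members, remaining cells or members with and without Arg1, and tested with edgeR 4.0.16 (quasi-likelihood, TMM, filterByExpr, Benjamini-Hochberg, threshold 0.05) in R 4.3.3. DESeq2 1.42.0 was an alternative. Clusters and neighbors came from 20 principal components of 5000 variable genes without the rule genes, with Leiden at resolution 0.5 in each library (leidenalg 0.10.2, scikit-learn 1.9.0). Doublets were scored from simulated pairs at 0.8% per 1000 cells, kept, and removed in an alternative. CPM is UMIs per 1000000 UMIs of the summed cells. Intervals are exact Clopper-Pearson or Poisson at 95% and cover counting error only. The scripts were tested on simulated data.

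Libraries of one experiment share its label, which marks 1 run of the whole procedure, so the experiment or library was a block. Deviations of members of the same experiment from their group means correlated at r = -0.05 over 4313 genes. Genes named are the rule genes, the 10 largest called rises and falls of members, among genes that averaged 10 CPM or more and moved one way in every library, up to 4 called genes of each list, the 5 largest in each direction of the comparisons among members, the 5 smallest adjusted p of the interaction, and Mif, Hif1a, Epas1, Ldha, Pgk1 and Pdk1. Names outside this rule are marked as such, and a gene that met it is not reported here. The alternatives were other normalizations and filters, other limits on cells, other forms of the rule, matched depth and leaving out each library. Those over efferocytic libraries alone, without cells with neutrophil markers, with at least 2 Arg1 UMIs, and with at least 2 rule genes other than Arg1 in both groups were chosen after seeing the data.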

Additional observations from a re-analysis of the deposited data

Results flagged for a closer look

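The difference between members and remaining cells itself differed between efferocytic and non-efferocytic libraries for 40 named genes with a fold, by the interaction test (edgeR quasi-likelihood, adjusted p under 0.05, library as a block). Values are the log2 fold change of members in efferocytic libraries minus that in non-efferocytic libraries. HIF targets and glycolysis genes were Eno1 (-0.88), Ero1l (-1.31), Ldha (-0.57), Mif (-0.82) and Slc16a3 (-0.73) below 0, and Bnip3 (0.73) above it. ATF4 targets and carriers were Asns (-1.98), Phgdh (-1.74), Trib3 (-1.39) and Slc7a1 (-1.82), with Azin1 at -0.69. Complement, MHC and receptor genes were above 0, namely C1qa (1.46), C1qb (1.63), C1qc (1.70), Cd74 (1.61), Clec10a (3.54), Gas6 (2.01), Mertk (1.47), Mrc1 (1.43) and Stab1 (1.17), as were Apoe (1.61), Cyp27a1 (2.57), Klf4 (1.13) and Selenop (1.77). Of these, Clec10a rested on 2.04 and 2.36 CPM and Cyp27a1 on 8.14 and 0 CPM in non-efferocytic members (Exp. 1 and Exp. 2). There 3 UMIs would be 6.11 and 7.08 CPM, so the size of these interactions is poorly measured.

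Granule, monocyte and progenitor genes were below 0, namely Ctsg (-1.33), Elane (-1.49), Lcn2 (-1.58), Ly6c2 (-1.63), Nkg7 (-2.46), Plac8 (-2.06), Prtn3 (-1.75) and S100a8 (-1.61), and so were Myl10 (-1.44) and Rrm2 (-2.59). Cd300lf (-1.30), Plaur (-1.72), Plin2 (-0.58) and Txnrd1 (-0.54) were below 0 as well. Col1a1 (5.97) and Sparc (5.94) were far above 0, and Col1a2, with 0 UMIs in non-efferocytic members, reached 78.5 CPM in efferocytic members of Exp. 2. Of the Col1a1 and Col1a2 UMIs of efferocytic members, 98.1 to 100% came from the 2 and 1 members with fibroblast markers (Exp. 1 and Exp. 2). Of 36 such genes named in the comparison of members with remaining cells, 33 could be tested without cells that had neutrophil markers, of which 23 were called in the same direction and 5 had the opposite sign. The 10 that were not called then were Elane, Ly6c2, Prtn3, Lcn2, Rrm2, Plac8 and S100a8, along with Bnip3 at 0.30 (adjusted p = 0.554, edgeR), Klf4 at 0.73 (0.0957) and Mertk at 1.39 (0.0527). Myl10, Ctsg and Nkg7 could not be tested without those cells.

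Outside the cells, barcodes with at most 100 UMIs held 152 CPM of Arg1 in the non-efferocytic and 194 CPM in the efferocytic library of Exp. 2, against 0.297 and 9.62 CPM in Exp. 1. The same barcodes of Exp. 2 held 97.0 and 109 CPM of Krt14.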

How the results depend on the processing

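The experiment or library was a replicate block in every fit across genes, except that fits of efferocytic against non-efferocytic members without 1 library held none. With no replicate block, members against remaining cells had 321 higher and 81 lower genes, efferocytic against non-efferocytic members 68 and 142, the interaction 3 and 0, and Arg1-positive against Arg1-negative members 1 and 49. Counts of genes higher and lower that moved by more than 1.5 times follow. For members against remaining cells, the efferocytic libraries alone gave 1519 and 1397 of 12724 genes. The lower count was 581 with no gene filter, 641 with at least 3 rule genes, 563 with Arg1 left out of the rule, 704 with the rule on cells thinned to 5000 UMIs, 32 scaled to UMIs per cell and 196 with remaining cells matched on UMIs. Leaving out 1 library gave 353 to 813 higher and 92 to 602 lower.

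For efferocytic against non-efferocytic members the counts were 22 and 65 with DESeq2, 196 and 216 with no gene filter, and 207 and 265 scaled to library totals. They were 12 and 29 at a mean of at least 10 CPM and 96 and 179 at no more than 5% mitochondrial UMIs. With a cut on total UMIs written after a Cell Ranger rule they were 15 and 44. The calls of Cell Ranger itself were not used. The counts were 106 and 181 with doublets removed, and 107 and 204 with Arg1 left out. The higher count was 31 at 5000 UMIs per cell or more, and the lower one 68 without cells with neutrophil markers. Leaving out 1 library gave 96 to 204 and 137 to 326. The interaction gave 131 and 167 with DESeq2, 121 and 137 at a mean of at least 10 CPM, 116 and 58 at matched depth, 474 below 0 with no gene filter, and 55 to 836 and 60 to 629 without 1 library. Arg1-positive against Arg1-negative members gave 9 and 26 with DESeq2, 55 and 99 at matched depth, 100 and 101 with at least 2 rule genes other than Arg1 in both groups, and 83 and 153 with Arg1-positive members from 2 Arg1 UMIs. The cause of these shifts was not tested.

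Shares of members were 0.0483, 1.31, 0.00746 and 0.392% with at least 3 rule genes (non-efferocytic and efferocytic Exp. 1, then Exp. 2), 0.0139, 1.93, 0.01999 and 0.456% in thinned cells, and 3.41 and 1.33% in the efferocytic libraries with Arg1 left out. Ankrd37 cells with another rule gene were 1.96, 27.3, 3.77 and 13.5% in thinned cells. Thinning leaves fewer UMIs per cell by construction.

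Signs changed for genes of members against remaining cells. Without cells with neutrophil markers Chil3 was at -0.56, Plac8 at -1.27, Prtn3 at -1.95 and Rrm2 at -0.39. With at least 3 rule genes Chil3 was at -5.88, Plac8 at -0.56, Prtn3 at -4.51, Rrm2 at -0.35 and S100a8 at -3.67, and in thinned cells Chil3 at -5.93 and S100a8 at -4.01. Sdhb was at 0.0189 scaled to UMIs per cell. Hif1a was at 0.0137 with DESeq2, 0.00555 scaled to library totals, 0.0208 at a mean of at least 10 CPM, 0.0111 at 5% mitochondrial UMIs, 0.0511 with Arg1 left out, 0.398 scaled to UMIs per cell, 0.0457 at matched depth, 0.0302 over efferocytic libraries and 0.0229 without cells with neutrophil markers, and at -0.119 to 0.0192 when 1 library was left out. Of the other gene values of this comparison, 1412 kept direction and side of the threshold, 167 lost and 2 gained significance. For Arg1-positive against Arg1-negative members 45 values kept it and 20 lost it. For efferocytic against non-efferocytic members 4 kept it and 6 lost it with DESeq2. In 56 cases a group had 0 UMIs and no value was given. Not run were leaving out a library for Arg1-positive members, which leaves no residual degrees of freedom, and the comparisons between groups with at least 3 rule genes or thinned cells, which leave under 10 non-efferocytic members. With 21 and 25 non-efferocytic members, low genes there could not be measured well.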

Other observations

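Members of the Arg1- and F13a1-led cluster of the efferocytic library of Exp. 1 also held 3663 CPM of Mmp12, the macrophage elastase, against 1587 CPM in members of the Mgam- and Trib3-led cluster of that library and 1254 CPM in that of Exp. 2. F13a1 was detected in 28.4% of Arg1-positive and 18.2% of Arg1-negative members of the efferocytic library of Exp. 1 and in 6.47% of its remaining cells, and in Exp. 2 in 4.17% of Arg1-positive and 4.95% of Arg1-negative efferocytic members and 2.28% of remaining cells. In the non-efferocytic libraries it was detected in 3 of 21 and 1 of 25 members (14.3% and 4%) and in 14.7% and 5.80% of remaining cells (Exp. 1 and Exp. 2). In the non-efferocytic library of Exp. 2, 66 of the 138 Arg1 UMIs lay in a cluster of 1669 cells with a median of 1164 UMIs per cell, 1 of which was a member. These values were chosen after they had been seen and carry no test.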
